A study of Mus musculus with 2 samples.

Results

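The cells described here were dendritic-type cells of the mouse dura mater, the outermost membrane around the brain, that carried Cd209a. A barcode was a member when it held at least 2 unique molecular identifiers (UMIs, counted RNA molecules) of Cd209a and at least 5 of H2-Aa, H2-Ab1 and H2-Eb1 together. It also had to hold under 5 UMIs of the 3 C1q genes, under 2 of Cd79a and Cd79b, and under 10 of Col1a1, Col1a2, Col3a1 and Dcn. The members were thus chosen by the UMIs of these 13 genes, whose levels are given as a description and support nothing else. Of 7559 barcodes with at least 200 genes and at most 10% mitochondrial UMIs, 83 were members. Of these, 34 came from the JVL-14 library and 49 from the sham library. The JVL-14 library was dura of female mice 14 days after ligature of the jugular veins, and the sham library was dura of female mice after sham surgery. The time between sham surgery and dissection, the strain and the number of mice are not given in the sources used here. In both groups the perfused dura was taken off the skull, digested with collagenase D and DNase I, and pooled in wells of 2 meninges each. Viable singlets were sorted by flow cytometry with no gate on a cell type that the labels name, and each group is 1 droplet library of pooled animals.

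Conventional dendritic cells take up antigen in tissue, carry it to lymph nodes and present it on MHC class II molecules to CD4 T cells. Their type 2 subset arises from Flt3-dependent precursors, and in mice it is known for lectins such as Cd209a and Clec10a. Monocytes that enter inflamed tissue can gain MHC class II and some of the same lectins, so both origins are commonly discussed for Cd209a cells.

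The JVL-14 library held 18796260 UMIs in 3004 barcodes and the sham library 33996641 UMIs in 5495 barcodes. Members were deeply covered, with a median of 9000.5 UMIs (2558 to 19359) in JVL-14 and 10188 UMIs (2641 to 18435) in sham. They had a median of 2356 genes in JVL-14 and 2440 in sham, and 1.18% and 1.23% mitochondrial UMIs. The 2 libraries shared 2 barcodes, and none of them was a member. With 1 library per group no difference between JVL-14 and sham could be tested, and animals, dissections and library preparations cannot be told apart from the procedure. Ranges in brackets after a ratio or a share are exact 95% intervals. They cover counting error only, take each UMI as independent, and are too narrow where a few cells hold many UMIs of a gene. Levels are given as CPM, the UMIs of a gene scaled to a total of 1e6 UMIs over the cells of a class.

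Each marker of the label was detected in at least 22 JVL-14 and 28 sham members. Cd209a (ENSMUSG00000031494), a lectin receptor and a gene of the rule, ranged from 2 to 46 UMIs per member in JVL-14 with a median of 7.5, and from 3 to 58 in sham with a median of 13. Flt3 (ENSMUSG00000042817), the growth factor receptor that dendritic cell precursors need, had a UMI in 22 of 34 JVL-14 members and 28 of 49 sham members. Fibroblasts, which should lack Flt3 and had medians of 6589.5 UMIs in JVL-14 and 7072 UMIs in sham, held it in 0 of 768 and 1 of 1672 cells. The exact 95% interval of the 0 in 768 cells reaches 0.479%. Clec10a (ENSMUSG00000000318), a galactose-binding lectin, had a UMI in 27 JVL-14 and 43 sham members, against 0.521% and 0.718% of fibroblasts. Fibroblasts are a distant class, and over the macrophages described below the ratio of Clec10a was only 2.97 in JVL-14 and 3.78 in sham. Tnip3 (ENSMUSG00000044162), an inhibitor of NF-kB signalling, had a UMI in 22 JVL-14 and 33 sham members, against 0.260% and 0.0598% of fibroblasts. H2-Aa (ENSMUSG00000036594), an MHC class II chain and a gene of the rule, was at 12316 CPM in JVL-14 members and 13145 CPM in sham members.

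The cells next to the Cd209a threshold were few. With exactly 2 UMIs, just inside, there were 6 cells in JVL-14 and 0 in sham, and 4 of the 6 had a Flt3 UMI and 4 a Clec10a UMI. With 1 UMI, just outside and passing every other condition, there were 3 cells in JVL-14 and 6 in sham. Of these, 2 of 3 and 4 of 6 had a Flt3 UMI. The C1q sum was 0 in 30 JVL-14 and 32 sham members. The MHC class II sum was under 20 in 2 members of each library, and 2 sham members were at 5, the lowest value the rule allows.

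Members were set against a neighbouring gate that differs mainly in C1q, the MHC class II C1q macrophages (under 2 Cd209a UMIs, at least 5 C1q UMIs, same other limits; 239 cells in JVL-14 and 459 in sham). This contrast follows from the rule, so it is a description. Of 17 measured genes in a list of 24 known for type 2 conventional dendritic cells, 12 were at least 2-fold higher in Cd209a cells in both libraries and 0 were at least 2-fold lower. Flt3, Clec10a and Tnip3, markers of the label, are among the 12. The list was chosen with earlier results of these data known, so its counts are not independent support for the label. Of all 4583 genes measured in both libraries, 3.80% were at least 2-fold higher and 7.62% at least 2-fold lower. A measured gene had at least 20 UMIs and a mean of at least 20 CPM over the 2 classes. Napsa, an aspartic protease, was at 830 CPM in Cd209a cells and 36.5 CPM in macrophages of JVL-14, a ratio of 22.7 (16.4 to 32.2). In sham it was at 800 and 57.8 CPM, a ratio of 13.8 (11.4 to 16.9). Flt3 was at 108 CPM in Cd209a cells and 3.48 CPM in macrophages of JVL-14, and at 108 and 10.6 CPM in sham. Dpp4, a surface peptidase, had ratios of 16.3 in JVL-14 and 15.3 in sham. H2-DMb2, a chain of a peptide-loading chaperone, had log2 ratios of 3.46 and 3.21.

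Of 17 measured genes of the integrin and adhesion list, 7 were at least 2-fold higher in members than in macrophages in both libraries and 2 lower (Cd81 and Vcam1). Itgb7, an integrin chain used in homing to mucosal tissue, had ratios of 16.9 (10.5 to 28.5) in JVL-14 and 9.01 (6.86 to 11.9) in sham. Among the other genes highest in members by rule, S100a4, a calcium-binding protein of motile cells, had 8.31 and 8.57, Lsp1, an actin-binding leukocyte protein, 7.41 and 6.12. Ltb4r1, the receptor for leukotriene B4, had ratios of 8.36 and 8.91, and Cbfa2t3, a transcriptional corepressor, 4.65 and 7.52. Mcemp1, S100a10, Olfm1, Anxa2 and Crip1 had ratios of 4.54 to 9.15 over the 2 libraries. Some genes high over macrophages were near even with the monocytes of the gate described below. Over monocytes Itgb7 had ratios of 1.6 in JVL-14 and 1.11 in sham, Napsa 1.57 and 1.02, and S100a4 1.28 and 0.858. Cbfa2t3 was higher there too, at 3.34 and 3.31.

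Macrophage genes were low. All 19 measured genes of a resident macrophage list were at least 2-fold lower in Cd209a cells in both libraries, and Stab1 and Gas6 had no UMI in any member. Pf4, a chemokine of border macrophages, had 5 UMIs in JVL-14 members and 1 in sham members, against 2717 and 5475 UMIs in macrophages. Maf, a transcription factor of macrophages, had 5 UMIs and 1 UMI, against 798 and 1330. Apoe, a lipid carrier, was at 639 CPM in members and 22987 CPM in macrophages of JVL-14, and at 134 and 20418 CPM in sham. Ccl12, Ccl8, Cd63, Ms4a7, Trem2, Cbr2 and C5ar1 had 0 to 4 UMIs each in the members of either library. Of 16 measured chemokine ligand genes, 11 were at least 2-fold lower in members and 0 higher. Lysosomal genes had 11 of 24 lower, among them Ctsb and Ctsd, and 3 higher, which were Ifi30, Naaa and Napsa. Some macrophage barcodes carried RNA of other cells. A neutrophil list summed to 8002 CPM in the JVL-14 gate and 10628 CPM in the sham gate, against 139 and 156 CPM in members. An erythroid list summed to 9746 and 13647 CPM, against 358 and 222 CPM. In members 8 of 9 measured neutrophil genes and 4 of 4 erythroid genes were lower, and the part of such RNA in this contrast was not tested.

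Of 12 measured genes of the MHC class II presentation list, 4 were at least 2-fold higher in members (H2-DMb2, H2-Oa, H2-Ob and Ifi30) and Lgmn was lower. H2-Oa and H2-Ob, chains of the molecule that restrains peptide loading, were higher in members. Their log2 ratios were 4.12 and 3.46 in JVL-14 and 3.77 and 2.79 in sham. Cd74, the invariant chain, had ratios of 1.16 and 1.31 and H2-DMb1 of 1.42 and 1.62. Ciita, the master regulator of MHC class II transcription, had ratios of 1.34 and 2.02.

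A second gate held monocytes (at least 2 Ly6c2 and 1 Ccr2 UMIs, under 2 Siglech UMIs, under 2 Cd209a UMIs and the same limits on C1q, Cd79 and collagen; 29 cells in JVL-14 and 89 in sham). This contrast too follows partly from the rule. Of 15 measured genes of the type 2 dendritic list, 11 were at least 2-fold higher in Cd209a cells in both libraries and 0 lower. The label markers Flt3, Clec10a and Tnip3 are among the 11. Over 4151 measured genes, 4.79% were higher and 7.76% lower by that rule. Mgl2, a lectin close to Clec10a, was at 1237 CPM in members and 2.40 CPM in monocytes of JVL-14, and at 1581 and 10.3 CPM in sham. Slamf7, an adhesion receptor of the SLAM family, had 103 UMIs in members and 0 in monocytes of JVL-14, and the exact interval of its ratio starts at 35.2. In sham its ratio was 31.5 (16.0 to 70.7). Dab2, an endocytic adaptor, had 52 UMIs in members and 0 in monocytes of JVL-14, with an interval that starts at 17.5, and 107 and 2 UMIs in sham. Slamf9, Clec4b1, Cd9 and Ckb were also among the 12 highest. Not all of these set members apart from macrophages. Over macrophages Mgl2 had ratios of only 1.3 in JVL-14 and 1.39 in sham, and Slamf9 had 0.936 and 0.908. Slamf7 had 2.97 and 3.41 over macrophages, and Clec4b1 2.58 and 2.73.

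Monocyte genes went the other way. Of 15 measured monocyte genes, 8 were at least 2-fold lower in members in both libraries and 0 higher. Hp, haptoglobin, had 2 UMIs in members and 300 in monocytes of JVL-14, a ratio of 0.00856 (0.00103 to 0.0312), and 27 and 1366 UMIs in sham. Fn1, fibronectin, had ratios of 0.0706 (0.0347 to 0.129) and 0.0882 (0.0624 to 0.121), and F13a1, a coagulation factor chain, 0.0872 and 0.0698. Ms4a4c, S100a4, Cd14 and Fcgr1 of the same list were within 2-fold in at least 1 library, and Ccr2, the receptor that draws monocytes into tissue and a gene of the monocyte gate, was at 577 CPM in JVL-14 members and 558 CPM in sham members. Genes of the NF-kB and inflammatory cytokine list had 16 of 23 higher in members and 0 lower, while against macrophages 3 of 24 were higher and 3 lower. Genes of the dissociation and immediate early list, among them Fosb, Egr1, Dusp1 and Socs3, had 11 of 28 higher in members than in monocytes and 1 lower, and their part in the NF-kB count was not tested. Il1b, which encodes interleukin 1 beta, had ratios of 2.05 in JVL-14 and 4.81 in sham, Tnf 2.64 and 7.20, and Tnfaip3, a feedback inhibitor of NF-kB, 2.63 and 6.02. Cell cycle genes had 14 of 26 lower, and cycling cells were 34.5% of the monocytes in JVL-14 and 37.1% in sham. The monocyte gate also carried RNA of neutrophils and their precursors: that list summed to 9895 CPM in the JVL-14 gate and 2104 CPM in the sham gate, against 139 and 156 CPM in Cd209a cells. All 6 of its measured genes were lower in Cd209a cells, and Elane and Mpo, enzymes of granulocyte precursors, were at 0 there. The part of such cells in the contrast with monocytes was not tested.

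**Figure D1:**
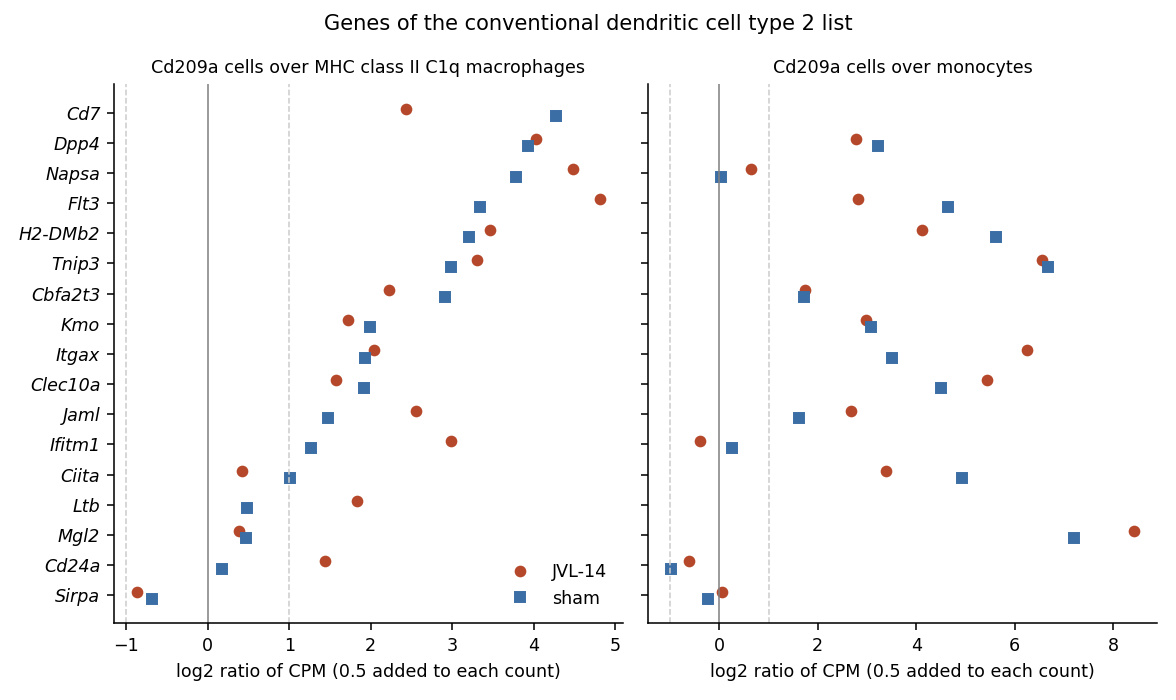
Log2 ratio of CPM (x axis, 0.5 added to each count) of Cd209a cells over MHC class II C1q macrophages (left) and over monocytes (right) for each measured gene of the type 2 conventional dendritic cell list, in JVL-14 (circles) and sham (squares). Dashed lines mark 2-fold. Flt3, Dpp4 and H2-DMb2 lie right of the 2-fold line in both libraries and both panels, while Sirpa lies between the lines.

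The members were not uniform. Plac8 (ENSMUSG00000029322), a small cysteine-rich protein of monocytes and other leukocytes, split them with a gap: 25 JVL-14 members had at most 1 UMI and the other 9 had 4 to 54. In sham 38 members had at most 2 UMIs and 11 had 6 to 174. This split was chosen after its values were seen. The share of Plac8-high members was 26.5% (12.9% to 44.4%) in JVL-14 and 22.4% (11.8% to 36.6%) in sham, and the intervals overlap widely. Plac8-high and Plac8-low members had similar depth, with medians of 10263 and 8686 UMIs in JVL-14 and 9987 and 10318 UMIs in sham.

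Mgl2 and Ly6c2 followed the same split in opposite directions. Mgl2 had a UMI in 3 of 9 Plac8-high and 20 of 25 Plac8-low members in JVL-14, and in 1 of 11 and 32 of 38 in sham. Ly6c2, a surface protein of classical monocytes, had a UMI in 5 of 9 Plac8-high and 1 of 25 Plac8-low members in JVL-14, and in 10 of 11 and 1 of 38 in sham. Fibroblasts held Ly6c2 UMIs in 0.911% of JVL-14 and 0.837% of sham cells. The exclusion was not complete: 1 JVL-14 member with 51 Plac8 UMIs held 8 Mgl2 UMIs, and the sham member with 174 held 2.

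**Figure D2:**
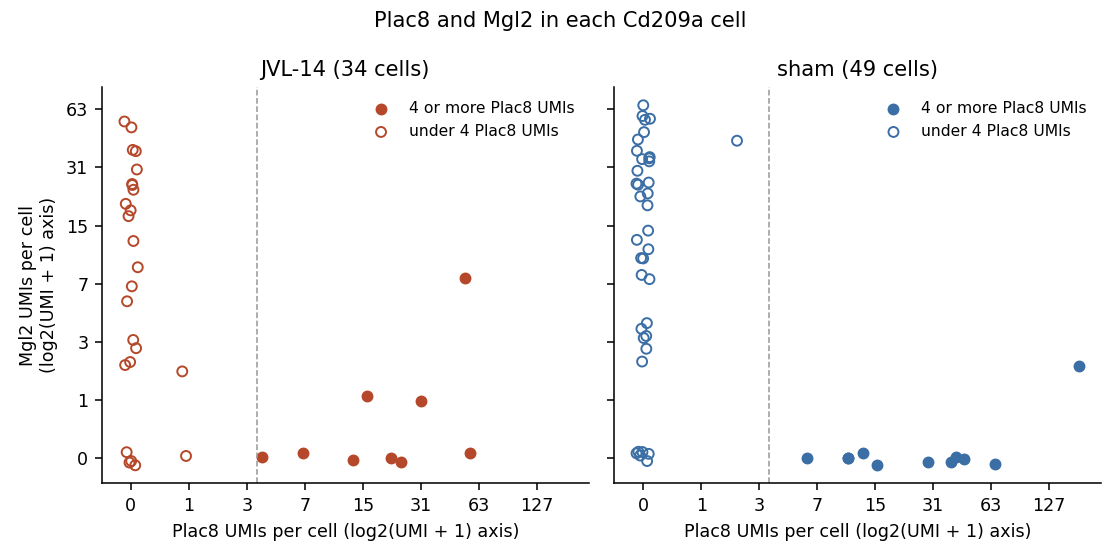
UMIs of Plac8 (x axis) and Mgl2 (y axis) in each Cd209a cell of the JVL-14 library (left, 34 cells) and the sham library (right, 49 cells), on log2(UMI + 1) axes with small random offsets. Filled points have 4 or more Plac8 UMIs (9 and 11 cells), and the dashed line marks that limit. Most filled points lie at 0 Mgl2 UMIs and most open points lie above it.

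Monocyte and macrophage genes were higher in Plac8-high members. Of 8 measured genes of the monocyte list, 5 were at least 2-fold higher in both libraries (Ly6c2, Ccr2, Lyz2, Ifi27l2a and Ms4a6c), and 4 of 6 measured resident macrophage genes were too, among them Apoe, Csf1r and Cx3cr1. Over 1966 genes measured in this contrast, 3.46% were higher and 2.80% lower by the same rule. Lyz2, lysozyme, was at 11964 CPM in Plac8-high and 1109 CPM in Plac8-low members of JVL-14, and at 9973 and 1264 CPM in sham. The Plac8-high members were uneven in Lyz2, with 0 to 338 UMIs each in JVL-14 and 1 to 342 in sham. Plac8-low members held 0 to 31 and 0 to 44, so some Plac8-high members were no higher in Lyz2 than these. Ccr2 was at 948 and 435 CPM in JVL-14, and at 928 and 446 CPM in sham. Csf1r, the receptor for the macrophage growth factor, was at 256 and 38.4 CPM in JVL-14, and at 189 and 52.1 CPM in sham. Apoe was at 2063 and 93.8 CPM in JVL-14, with a UMI in 4 of 9 Plac8-high and 12 of 25 Plac8-low members, and at 352 and 67.7 CPM in sham. Lst1, Fyb, Ms4a6b and Tgfbi were also among the 12 highest in both libraries. The higher genes were not of monocytes and macrophages alone. Of 2 measured plasmacytoid dendritic genes 2 were higher (Bst2 and Tcf4), as were 4 of 5 measured interferon response genes (Ifitm3, Ifi27l2a, Bst2 and Ifi204).

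Some dendritic and NF-kB genes were lower in Plac8-high members. Of 13 measured genes of the type 2 dendritic list, 6 were at least 2-fold lower in Plac8-high members in both libraries and 0 higher. The label markers Clec10a and Tnip3 are among the 6. Of 18 measured NF-kB and inflammatory cytokine genes, 6 were lower and 0 higher. Tnip3 had a UMI in 2 of 9 Plac8-high members of JVL-14 and 2 of 11 of sham. It was at 22.3 CPM in Plac8-high and 768 CPM in Plac8-low members of JVL-14, and at 17.2 and 573 CPM in sham. Dab2 was at 11.1 and 218 CPM in JVL-14 and at 25.8 and 271 CPM in sham. Ccnd1, cyclin D1, was at 78.0 and 623 CPM in JVL-14 and at 43.0 and 404 CPM in sham. Etv3, Zfp36l1 and Bcl2a1d were lower as well. Flt3 did not follow the split, at 55.7 CPM in Plac8-high and 128 CPM in Plac8-low members of JVL-14, and at 120 and 104 CPM in sham. The MHC class II sum had medians of 293 UMIs in Plac8-high and 363 in Plac8-low members of JVL-14, and of 151 and 412 in sham.

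Flt3 and Ly6c2 did not exclude each other. Unthinned, 19 JVL-14 members (55.9%) and 22 sham members (44.9%) had Flt3 and no Ly6c2. Ly6c2 and no Flt3 was seen in 3 and 5 members, both genes in 3 and 6, and neither in 9 and 16. Of members with Ly6c2, 3 of 6 in JVL-14 and 6 of 11 in sham thus also held Flt3, against 22 of 34 and 28 of 49 of all members. With each member thinned to 1000 UMIs, Flt3 and no Ly6c2 was seen in 17.6% (6.76% to 34.5%) of JVL-14 and 18.4% (8.76% to 32.0%) of sham members. Ly6c2 and no Flt3 was then seen in 14.7% (4.95% to 31.1%) and 4.08% (0.498% to 14.0%). These are detection states of low counts, and most thinned members, 67.6% in JVL-14 and 75.5% in sham, showed neither gene. In the unthinned states, Mgl2 was at 1393 CPM in JVL-14 members with Flt3 and no Ly6c2, against 34.1 CPM in those with Ly6c2 and no Flt3, and at 2090 and 38.6 CPM in sham. Plac8 was at 91.2 and 2561 CPM in JVL-14 and at 34.3 and 6250 CPM in sham. The Ly6c2 states hold only 3 and 5 members, so these levels are those of a few cells.

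The share of Cd209a cells did not differ between the libraries beyond counting error. They were 1.30% (0.904% to 1.82%) of 2608 passing JVL-14 barcodes and 0.990% (0.733% to 1.31%) of 4951 passing sham barcodes, a ratio of 1.32 (0.825 to 2.08) with an interval that holds 1. Among the 3 myeloid gates together they were 11.3% in JVL-14 and 8.21% in sham, a ratio of 1.37 (0.859 to 2.17). The macrophage gate had a ratio of 0.988 (0.842 to 1.16) and the monocyte gate 0.619 (0.392 to 0.95). Cells of the type 1 conventional dendritic gate (Xcr1 and Clec9a) numbered 12 and 23, and those of the mature dendritic gate (Ccr7, Fscn1 and Ccl22) 2 and 13. A share is relative to the other cells of a library, and B cells made up 16.0% of JVL-14 and 7.39% of sham barcodes. Their part in the share of Cd209a cells was not tested.

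**Figure D3:**
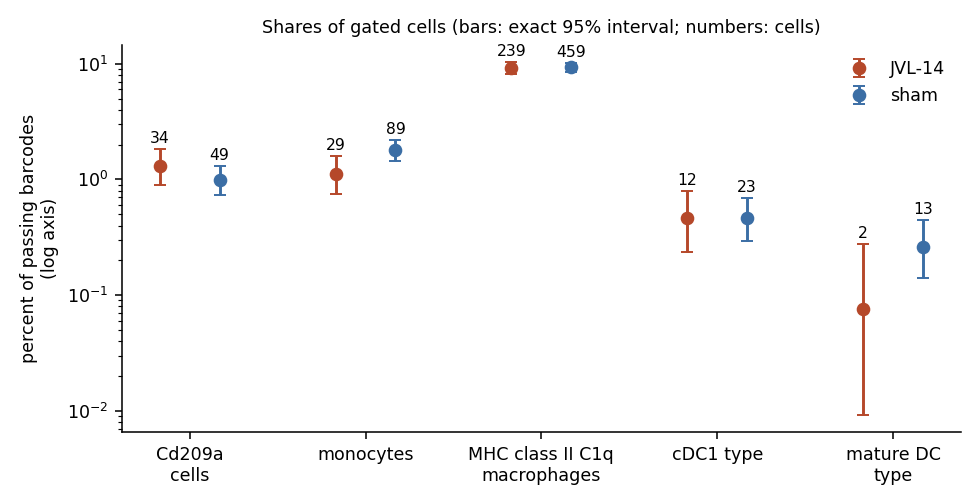
Percent of passing barcodes (y axis, log scale) in 5 gates of the JVL-14 library (left point of each pair) and the sham library (right point), with exact 95% intervals and the number of cells above each bar. The intervals of the pair overlap for Cd209a cells, at 34 and 49 cells.

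The comparison of JVL-14 with sham asked whether the same cells carry other RNA after the veins are tied. Over 4259 genes measured in members, 14.9% were at least 1.5-fold higher in JVL-14 and 10.1% at least 1.5-fold lower. The median of all log2 ratios was 0.05. In members with under 4 Plac8 UMIs, 511 of 3350 measured genes were higher and 338 lower. Without cycling members (defined below), 461 of 3726 were higher and 431 lower. Among the monocytes 11.2% were higher and 10.7% lower over 5257 genes. Among the macrophages 5.19% were higher and 5.15% lower over 5168 genes. That gate holds many more UMIs, 1149441 in JVL-14 and 2457447 in sham, against 324132 and 500191 in members. A single gene past 1.5-fold in members is therefore a common event, and counts of gene lists below are read against these shares.

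Several genes known to be induced by glucocorticoids were lower in JVL-14 members. Of 19 measured genes of a list of 25, 9 were at least 1.5-fold lower and 2 higher, and the median of their log2 ratios was -0.58. In members with under 4 Plac8 UMIs 9 of 18 were lower and 0 higher. Without cycling members (defined below) 6 of 19 were lower and 1 higher, with a median of -0.25. Fkbp5 (ENSMUSG00000024222), a cochaperone of the glucocorticoid receptor and one of its best known targets, had 4 UMIs in 4 of 34 JVL-14 members, with at most 1 UMI in any cell. In sham it had 37 UMIs in 22 of 49 members, with at most 5 in a cell. The ratio of its level was 0.167 (0.0432 to 0.464).

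Klf9, a transcription factor induced by the receptor, had 9 UMIs in 6 JVL-14 members and 50 UMIs in 24 sham members, a ratio of 0.278 (0.12 to 0.571). Il1r2, the decoy receptor for interleukin 1, had 9 UMIs in 6 JVL-14 members and 47 UMIs in 20 sham members, a ratio of 0.296 (0.127 to 0.610). Per1, a clock gene with a known glucocorticoid response, had a UMI in 11 JVL-14 and 27 sham members, a ratio of 0.502 (0.254 to 0.936).

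The other lower genes were Sgk1, a kinase, with a ratio of 0.375 (0.159 to 0.792), Cebpb, a transcription factor, with 0.478 (0.235 to 0.907), Mt2, a metallothionein, with 0.528 (0.375 to 0.733), Mt1 with 0.658 (0.599 to 0.722) and Cd163 with 0.594 (0.255 to 1.27). The Sgk1 value did not hold within the Plac8-low members, where it had a ratio of 0.982 (0.379 to 2.40). Without cycling members Mt1 had 0.838 (0.76 to 0.924) and Mt2 0.7 (0.494 to 0.978), so neither was past 1.5-fold. The intervals of Per1, 0.535 (0.248 to 1.06), and Cebpb, 0.576 (0.266 to 1.15), then held 1. In Plac8-high members Mt1 went the other way, at 2.48 (1.63 to 3.85). Fkbp5, Klf9 and Il1r2 kept intervals below 1 in Plac8-low members and without cycling members. Tsc22d3, another well known glucocorticoid target, went the other way, at 278 CPM in JVL-14 and 180 CPM in sham members, a ratio of 1.54 (1.14 to 2.09). Nr3c1, the receptor itself, had a ratio of 0.790 (0.444 to 1.37).

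The lower level of Fkbp5 and Klf9 was also seen outside Cd209a cells. The log2 ratio of Fkbp5 was -2.43 in members, -2.26 in macrophages and -1.70 in monocytes, and that of Klf9 was -1.78, -1.47 and -1.41. In fibroblasts Fkbp5 was at 32.8 CPM in JVL-14 and 111 CPM in sham, and in B cells at 13.8 and 20.2 CPM. The list as a whole was less uniform outside members. In macrophages 6 of 19 measured genes were at least 1.5-fold lower and 1 higher, with a median log2 ratio of -0.27. In monocytes 3 of 14 were lower and 1 higher, with a median of 0.06, where 10.7% of all measured genes were lower. Il1r2 was measured in members alone of the 3 myeloid gates.

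**Figure D4:**
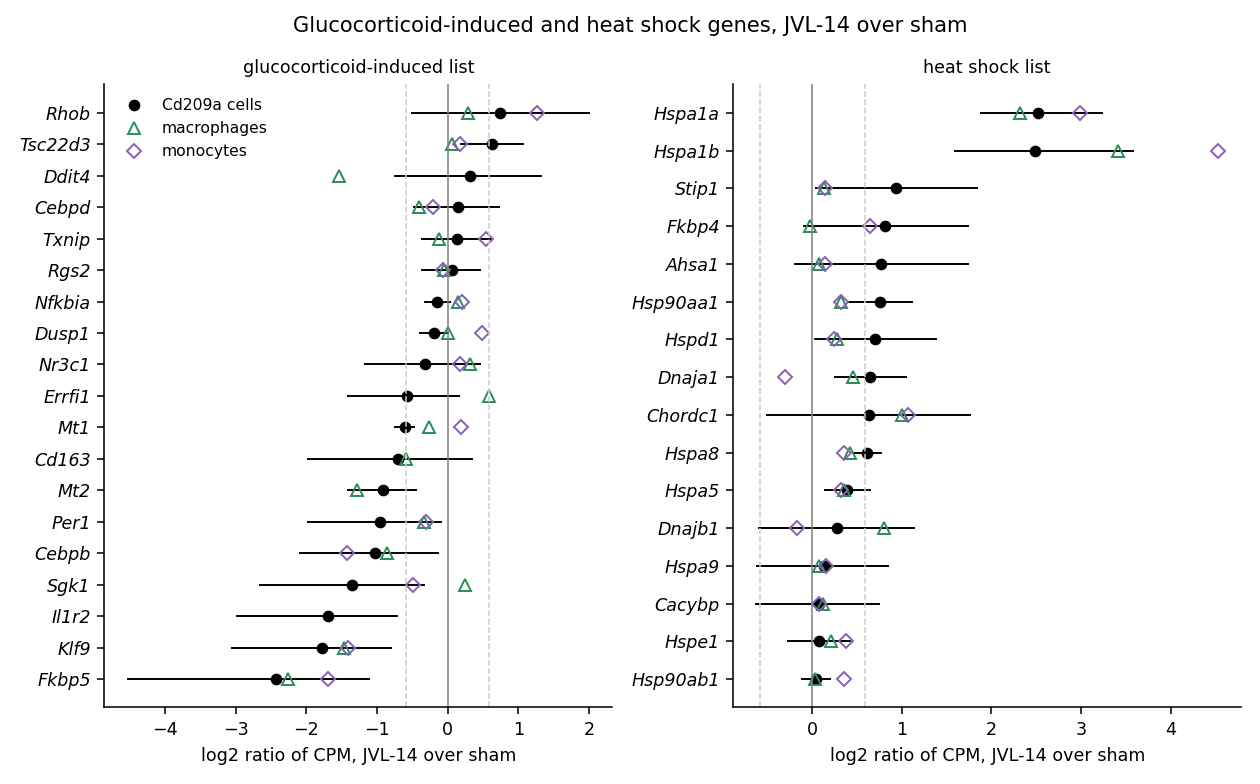
Log2 ratio of CPM, JVL-14 over sham (x axis, 0.5 added to each count), for the measured genes of the glucocorticoid-induced list (left) and the heat shock list (right). Black points are Cd209a cells with their 95% counting interval, and open triangles and diamonds are macrophages and monocytes where the gene was measured. Fkbp5 and Klf9 lie left of the 1.5-fold line in every class shown, and Hspa1a and Hspa1b lie right of it.

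Heat shock genes were higher in JVL-14 members, and a few cells carried much of it. Of 16 measured genes of a list of 22, 10 were at least 1.5-fold higher and 0 lower. Their median was 0.64 on the log2 scale. The count was 10 of 16 within the Plac8-low members, and 5 of 16 with a median of 0.48 without cycling members. Hspa1a (ENSMUSG00000091971), an inducible chaperone of the HSP70 family, had 94 UMIs in 10 of 34 JVL-14 members and 25 UMIs in 8 of 49 sham members, a ratio of 5.80 (3.70 to 9.42). One JVL-14 member held 50 of the 94 UMIs and the next 16, and the highest sham member held 7. The ratio was 2.49 (1.46 to 4.3) within the Plac8-low members, which left out the member with 50, and 3.59 (2.15 to 6.13) without cycling members. Hspa1b, a near-identical paralog whose reads cannot be fully told apart from those of Hspa1a, had 45 UMIs in JVL-14 members and 12 UMIs in sham members.

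Hspa8, the constitutive chaperone of the same family, was at 2265 CPM in JVL-14 and 1481 CPM in sham members, a ratio of 1.53 (1.38 to 1.70). Its median was 14 UMIs per member in both libraries, and the highest members held 97 UMIs in JVL-14 and 36 in sham. Hsp90aa1 had a ratio of 1.70 (1.33 to 2.17), Stip1, a cochaperone between both chaperone systems, 1.91 (1.03 to 3.57), and Dnaja1 1.57 (1.19 to 2.07). Macrophages had 5 of 18 measured heat shock genes higher and 0 lower, and monocytes 6 of 18 and 0. Genes of the dissociation and immediate early response list, which tissue digestion is known to induce, had 2 of 31 higher and 3 lower in members, with a median of -0.01. The part of tissue digestion in the heat shock counts was not tested.

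**Figure D5:**
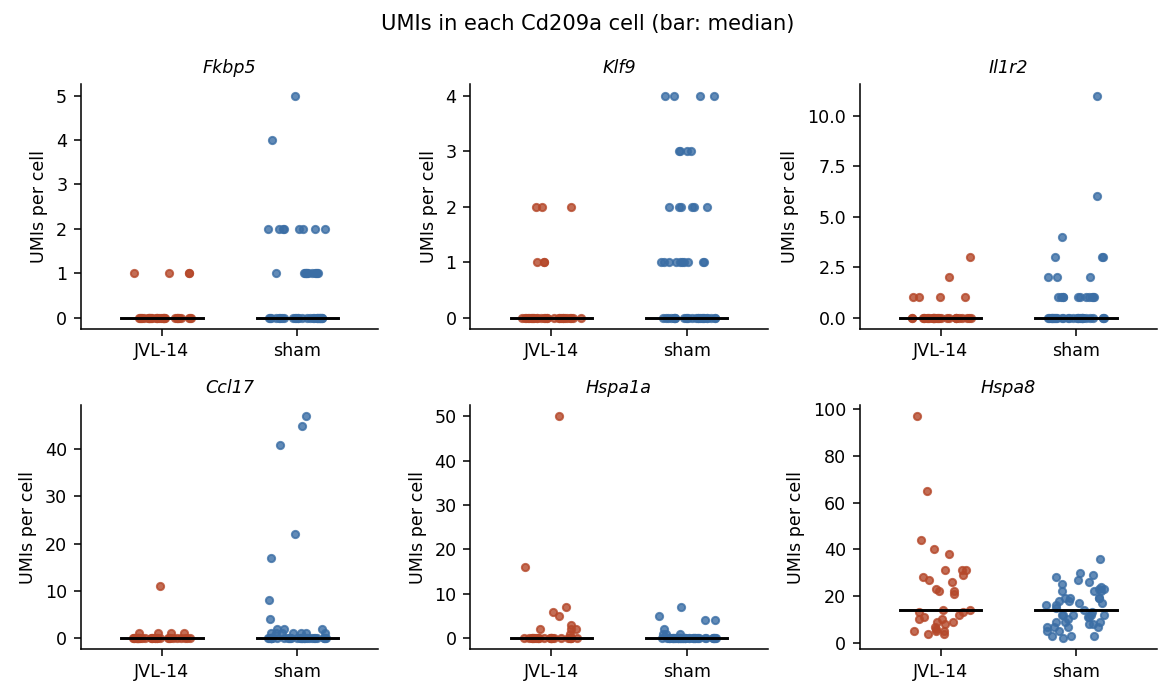
UMIs per cell (y axis) of 6 genes in the 34 JVL-14 members (left of each panel) and the 49 sham members (right), each point being 1 cell and the bar the median. Fkbp5 does not exceed 1 UMI in JVL-14 and reaches 5 in sham, while the 50 Hspa1a UMIs and the 97 Hspa8 UMIs of the highest JVL-14 cells stand apart.

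Among chemokine ligands, which draw other leukocytes into tissue, Ccl17 and Ccl4 were lower in JVL-14 members. Of 10 measured ligands, 3 were at least 1.5-fold lower (Ccl17, Ccl4 and Ccl9) and Cxcl2 was higher. Without cycling members 2 of 10 were lower and 0 higher, where 431 of all 3726 measured genes were lower. Ccl17 (ENSMUSG00000031780), a ligand of Ccr4 made by dendritic cells, had 15 UMIs in 5 JVL-14 members and 197 UMIs in 17 sham members, a ratio of 0.118 (0.0645 to 0.199). One JVL-14 member held 11 of the 15 UMIs, and 5 sham members held 172 of the 197, so the level rested on few cells in both libraries. Without cycling members, 1 of which held the 11 UMIs, the ratio was 0.0417 (0.0112 to 0.108). All its UMIs were in Plac8-low members, 5 of 25 in JVL-14 and 17 of 38 in sham. Thinned to 2500 UMIs per member, 2 JVL-14 and 10 sham members held one. Fibroblasts held Ccl17 UMIs in 0.391% of JVL-14 and 1.20% of sham cells. In macrophages its log2 ratio was -0.45.

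Ccl4, an inflammatory chemokine, was at 620 CPM in JVL-14 and 1240 CPM in sham members, a ratio of 0.50 (0.425 to 0.587), with a UMI in 16 and 29 members. Its level too rested on few cells, as 5 JVL-14 members held 174 of 201 UMIs and 5 sham members 355 of 620. The interval of its ratio is therefore too narrow. In macrophages Ccl4 went the other way, with 1764 CPM in JVL-14 and 890 CPM in sham, and the log2 ratio was -1.0 in members and 0.99 in macrophages. The difference between the classes was not tested. Ccl2 was at 756 CPM in JVL-14 and 618 CPM in sham members. Among receptors, Ccr2 was even at 577 and 558 CPM, and Ccr1 had a UMI in 5 JVL-14 and 20 sham members, a ratio of 0.502 (0.246 to 0.957).

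The MHC class II pathway and the identity genes differed little. Of 14 measured genes of the MHC class II presentation list, 0 were past 1.5-fold in either direction, with a median log2 ratio of -0.14. Cd74 was at 34375 CPM in JVL-14 and 35626 CPM in sham members, a ratio of 0.965 (0.942 to 0.988). H2-DMa, a chain of the peptide-loading chaperone, had 0.766 (0.661 to 0.886) and Ctss, the protease that trims the invariant chain, 0.839 (0.745 to 0.944). Of 20 measured genes of the type 2 dendritic list, 3 were higher (Ltb, Kmo and Cd24a) and 0 lower, close to the share over all genes. Flt3 was at 108 CPM in both libraries, with a ratio of 1.0 (0.634 to 1.56) and log2 ratios of -0.34 to 1.16 over 15 alternatives, and Clec10a at 574 and 584 CPM. Mgl2 was at 1237 CPM in JVL-14 and 1581 CPM in sham, a ratio of 0.782 (0.692 to 0.883).

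Some lectins and transcription factors were past 1.5-fold. Of 14 measured C-type lectin genes, 4 were higher (28.6%) and 1 lower (7.14%), against 14.9% and 10.1% of all measured genes. Of 21 measured dendritic cell transcription factor genes, 3 were higher (14.3%) and 1 lower (4.76%). The transcription factor counts thus did not exceed the shares over all genes, and its genes below are given as description. Clec4b1, an activating lectin of dendritic cells, had a ratio of 1.74 (1.35 to 2.25), with a median of 4 UMIs per member in JVL-14 and 2 in sham. Clec12a had 1.76 (1.21 to 2.57) and Clec4a2, an inhibitory lectin, 0.526 (0.335 to 0.804). Rel, an NF-kB subunit, was at 321 CPM in JVL-14 and 180 CPM in sham members, a ratio of 1.78 (1.33 to 2.39), and its median was 1 UMI per member in both. Id2, a transcription factor of dendritic cell development, had a UMI in 14 JVL-14 and 30 sham members, a ratio of 0.598 (0.444 to 0.797).

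Cell cycle genes were higher in JVL-14 members, and a handful of cells held nearly all of their UMIs. Of 19 measured genes, 17 were at least 1.5-fold higher and 0 lower. Their median was 1.35 on the log2 scale. All 26 Mki67 UMIs of JVL-14 lay in 6 members and the 21 of sham in 4. Summed over Mki67, Top2a, Birc5, Rrm2, Tyms, Pclaf, Ccnb2 and Ube2c, 6 of 34 JVL-14 members held 13 or more UMIs and all others at most 2. In sham 2 of 49 held 31 or more and all others at most 3. This limit of 10 UMIs was chosen after the values were seen. The share of such cycling members was 17.6% (6.76% to 34.5%) in JVL-14 and 4.08% (0.498% to 14.0%) in sham, a ratio of 4.32 (0.773 to 43.8) with an interval that holds 1. Without them the list had a median of 0.13 over 6 measured genes. By the same count 1.26% of macrophages were cycling in JVL-14 and 1.74% in sham.

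Interferon-induced genes had 5 of 16 measured members of the list higher and 0 lower, with a median of 0.37. Irf7, a transcription factor that interferon induces, had 30 UMIs in 10 JVL-14 members and 14 UMIs in 8 sham members, a ratio of 3.31 (1.70 to 6.75). Within the Plac8-low members 1 of 8 was higher and 1 lower, with a median of -0.18, and Bst2 was at 213 CPM in JVL-14 and 235 CPM in sham. Irf8, a transcription factor of type 1 and plasmacytoid dendritic cells, had 37 UMIs in JVL-14 and 4 in sham members. One JVL-14 member with 14 UMIs of Siglech, a marker of plasmacytoid dendritic cells, held 23 of the 37, and another held 7. Both had more than 10 Plac8 UMIs, and the Siglech member had 2 Cd209a UMIs. In the Plac8-low members Irf8 had 1 UMI in JVL-14 and 2 in sham.

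A fixed rule took 12 genes at each end of the JVL-14 over sham ratios. In the library with the higher level, such a gene had at least 30 UMIs, 50 CPM and a UMI in 10% of members, at most 50% of its UMIs in 5 cells, and at least 0.5 times its CPM over all passing barcodes. They formed no list fixed for this report. Smim11, a small membrane protein, had 36 UMIs in 19 JVL-14 members and 10 UMIs in 10 sham members, a ratio of 5.56 (2.70 to 12.6), while its level over all passing barcodes was 102 and 98.4 CPM. Mapk14, the stress kinase p38 alpha, had a ratio of 2.65 (1.5 to 4.77), and Ppp1cb, a catalytic subunit of protein phosphatase 1, 2.57 (1.46 to 4.65). Mgat2, Ubap2l, Dipk1a, Golga7, Baz1a, Eapp, Srp19 and Dnajc19 had ratios of 1.86 to 2.37.

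The lowest of these genes after Fkbp5 was Ext1, a heparan sulfate polymerase, with 5 UMIs in JVL-14 and 33 in sham members, a ratio of 0.234 (0.0713 to 0.603). Hopx, an atypical homeodomain protein, had 5 and 32 UMIs, a ratio of 0.241 (0.0733 to 0.623), and Glipr2 5 and 30. Cdkn2d, a cyclin-dependent kinase inhibitor, was at 89.5 CPM in JVL-14 and 220 CPM in sham members, a ratio of 0.407 (0.260 to 0.617), with a log2 ratio of -1.14 in macrophages. Ube2m, Ypel5, Med13l, Ifitm6, Eif1a, Hsd17b11 and Lifr had ratios of 0.284 to 0.414. The difference in Ube2m was present over whole libraries, at 44.1 CPM in JVL-14 and 104 CPM in sham over all passing barcodes.

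The monocyte list summed to 9561 CPM in JVL-14 members and 9089 CPM in sham members, above their type 2 dendritic list without the genes of the rule, at 4751 and 4858 CPM. In the monocyte gate the monocyte list summed to 28990 CPM in JVL-14 and 36045 CPM in sham. The plasmacytoid list was at 821 CPM in JVL-14 and 420 CPM in sham members. Markers of several other cell types were low or at 0. Ms4a1 and Pax5 of B cells, Elane and Mpo of neutrophil precursors, and Lyve1, Folr2, Mertk and Siglec1 of resident macrophages were at 0 in both. The summed level of the resident macrophage list was 1502 CPM in JVL-14 and 938 CPM in sham (15 and 14 of 22 genes with a UMI). That of the erythroid list was 358 and 222 CPM, with Alas2 at 0, and that of the skeletal muscle list 27.8 and 114 CPM (1 and 8 of 11 genes with a UMI). The mature dendritic list summed to 450 CPM in JVL-14 and 922 CPM in sham, with Fscn1 at 0 in both. That list includes Ccl17, at 46.3 CPM in JVL-14 and 394 CPM in sham. Their part in the differences above was not tested.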

How the data were processed

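Single cells of mouse dura were profiled with a droplet 3' kit in 1 JVL-14 and 1 sham library. The deposited files hold raw UMI counts per gene and barcode, made by the authors with Cell Ranger 8.0.0 per the file headers, and mm39 is the build in the submitters' processing notes. Introns and further settings are not given in the sources used here. Members and gene lists were chosen with earlier results of these data known, and the Plac8 split and the cycling limit after their values were seen. Barcodes with under 200 genes or over 10% mitochondrial UMIs were left out. Within each library the UMIs of a class were added up and scaled to CPM. A gene was measured at 20 or more UMIs and a mean of 20 CPM. For counts of genes, log2 ratios and class ratios of genes outside the 12 named ones, 0.5 was added to each UMI sum. Counts past 1.5-fold (JVL-14 over sham) or past 2-fold in both libraries (between classes) are descriptions, and no test was possible. Genes of the gates were left out of the class counts. Shares have exact Clopper-Pearson intervals, and ratios exact conditional binomial ones. Ratio scripts were tested on simulated data. Cells were thinned to 1000 or 2500 UMIs where stated. Named genes were the 12 highest and 12 lowest per comparison after fixed minimum levels. Where 26 gene symbols occurred more than once, the gene with more UMIs was used. Scrublet in scanpy 1.11.5 called 0.230% of JVL-14 and 0.121% of sham barcodes as doublets, too few to be used, so no doublets were removed, and the highest 5% of scores were left out as an alternative. Python 3.11.15, numpy 2.4.6, scipy 1.17.1, pandas 2.3.3 and matplotlib 3.10.9 were used. Some results that these rules select are not reported here.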

Additional observations from a re-analysis of the deposited data

How the results depend on the processing

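No paired analysis was possible because each group is 1 library. The share ratio of Cd209a cells was 1.08 to 1.38 over 9 alternatives, the glucocorticoid median -0.62 to -0.11 over 14 and the heat shock median 0.25 to 0.77 over 15. The cell cycle median was 0.79 with Cd209a at 1 UMI or more, 2.40 without the highest 5% of Scrublet scores, 0.50 without the 5 deepest members of each library, 0.65 with members thinned to 2500 UMIs and 0.13 without cycling members. Genes past 1.5-fold numbered 60 higher and 69 lower in JVL-14 with members thinned to 1000 UMIs, and 150 and 198 at 2500 UMIs. They numbered 213 and 151 at a mean of 50 CPM or more, and 4267 and 3035 with no minimum beyond 1 UMI, and 409 were higher without the 5 deepest members. Against macrophages 694 genes were higher and 1109 lower with no minimum, and 94 and 199 at 50 CPM. Against monocytes these were 908 and 997, and 119 and 172. Flt3 without Ly6c2 was seen in 7.14% to 55.9% of JVL-14 and 9.26% to 44.9% of sham members over 9 alternatives, with the highest values unthinned. Flt3, near 0 on the log2 scale, changed sign in 5 of 15 alternatives. Signs over the alternatives were followed only for the named genes of JVL-14 over sham and a few further genes, not for all genes past 1.5-fold. Among the followed genes past 1.5-fold, the log2 ratio changed sign for Dnajc19 (-1.40) and Hsd17b11 (0.53) at 1000 UMIs. It also did so for Irf8 (-0.03) in Plac8-low members, and the cause was not tested. At 1000 UMIs the glucocorticoid list had too few measured genes for a median. The alternatives with Plac8-low members, without cycling members and at 2500 UMIs were chosen after seeing the data.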
